A study of Homo sapiens with 8 samples.

Results

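EGR, KLF and IER genes include immediate early factors, which cells can switch on within minutes of a signal without making new protein first. The list holds 10 such genes: the EGR zinc-finger factors EGR1, EGR2 and EGR3, the Krüppel-like factors KLF2, KLF4, KLF5, KLF6 and KLF10, and the small signal-induced genes IER2 and IER3. They were read in MDA-MB-231 cells, a breast cancer line that lacks hormone receptors and HER2, on Affymetrix Human Exon 1.0 ST arrays, whose probesets each read a stretch of an exon. The cells had been stably transduced with lentivirus carrying either a control shRNA or an shRNA against the integrin α3 subunit, with 2 arrays of biological replicates in each group. Both groups were kept in medium with serum on standard culture plates, and the labels describe no starvation or stimulation step, so the values are those of growing cells and not of an induction. The hairpin sequence, and whether each line is a pool or 1 clone, are not stated in any source at hand, and no rescue group is labelled.

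Features were used where their annotation names 1 member gene only. That rule gave 9 gene-level transcript clusters of 22011, 1 for each member except EGR2, and 102 exon-level probesets of 287329, covering all 10 members. The gene-level and exon-level values summarise the same 4 arrays and are not independent of each other. The unit is the PLIER intensity on a linear scale, a model-based summary of several probes. Differences are knockdown minus control on the log2(intensity + 16) scale, which understates changes of dim features, and a call is an adjusted p under 0.05 in limma with Benjamini-Hochberg adjustment over all features tested. With 2 arrays a group, the number of arrays limits the precision of every value. Intensities of different genes come from different probes and were not compared.

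As background, EGR1 transcription rises when the kinase ERK phosphorylates ternary complex factors such as ELK1, which sit with serum response factor (SRF) on CArG boxes of its promoter. EGR proteins then bind GC-rich sites, and they induce NAB2, a corepressor that limits them. KLF proteins bind related GC-rich and CACCC elements through a conserved zinc-finger domain. Cell attachment through integrins, including laminin-binding α3β1, can feed the same ERK route.

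Promoter sequences of 3 members are shown because they differ in the motifs through which growth signals are known to act. RefSeq promoter windows on GRCh38.p14, running from 250 bases before to 50 bases after a gene's start, were at hand for 7 members in 10 windows. Shown are EGR1 and KLF6, which were both lower in knockdown cells, and KLF2, which did not pass the test. All read 5′ to 3′ along the gene, with capitals for CArG boxes, for TGACG on either strand and for the site GCGNGGGCG on either strand. The windows lie at chr5:138465229-138465528 (plus strand), chr10:3785160-3785459 (minus strand) and chr19:16324576-16324875 (plus strand).
EGR1: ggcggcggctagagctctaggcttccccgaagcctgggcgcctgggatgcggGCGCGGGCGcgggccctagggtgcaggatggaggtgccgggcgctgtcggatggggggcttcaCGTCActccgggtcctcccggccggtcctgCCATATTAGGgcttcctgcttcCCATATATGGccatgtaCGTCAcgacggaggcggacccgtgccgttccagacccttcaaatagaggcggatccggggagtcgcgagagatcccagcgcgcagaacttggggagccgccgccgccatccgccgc
KLF6: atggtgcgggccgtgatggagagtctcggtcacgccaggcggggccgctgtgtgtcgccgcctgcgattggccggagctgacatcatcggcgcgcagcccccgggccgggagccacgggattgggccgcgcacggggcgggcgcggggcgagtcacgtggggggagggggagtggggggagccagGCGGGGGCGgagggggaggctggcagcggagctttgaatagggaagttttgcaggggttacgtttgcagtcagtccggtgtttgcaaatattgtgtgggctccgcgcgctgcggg
KLF2: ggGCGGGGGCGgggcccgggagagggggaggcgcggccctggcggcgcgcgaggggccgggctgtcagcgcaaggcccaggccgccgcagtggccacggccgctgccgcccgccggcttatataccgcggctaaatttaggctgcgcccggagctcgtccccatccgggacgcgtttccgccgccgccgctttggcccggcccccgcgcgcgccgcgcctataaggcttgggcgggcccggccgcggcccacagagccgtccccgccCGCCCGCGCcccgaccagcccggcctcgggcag

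The EGR1 window held 2 CArG boxes, CCATATTAGG and CCATATATGG, starting 105 and 83 bases before the gene's start. A CArG box was found in 1.29% of the 35116 windows of this length. The EGR1 window also held 2 matches to TGACG, the core of the cAMP response element, which 24.6% of all windows have. The KLF6 and KLF2 windows held neither a CArG box nor TGACG. GCGNGGGCG, the 9-base core that EGR proteins bind, was found in 9.43% of windows, with 1 match each in EGR1 and KLF6 and 2 in KLF2, some of which overlap matches to GGGCGG, the core of the GC box that 45.0% of windows have. The shown windows held no match to CCGGAA, a core bound by ETS factors such as ELK1 that 17.2% of windows have. Only this exact form was searched, so other forms of an ETS site were not counted. Among the other members with a window, a CArG box was found in 1 of the 3 EGR2 windows and in no window of KLF4, KLF5 or IER2. A match is a description of these letters, not of a bound site.

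In each pair of values below, replicate 1 comes first. The mRNA that the hairpin targets, ITGA3, was at 3480 and 3529 in controls and at 619 and 644 in knockdown cells, in the direction the labels give. Of the 13207 transcript clusters tested after the dimmest 40% were left out, limma called 5.99% higher and 15.3% lower in knockdown cells. Array medians were 177 and 186 in controls and 168 and 171 in knockdown cells, and the median difference of all tested clusters was -0.055 on the log2 scale. It became 0.017 after quantile normalization and 0.036 after centring each array on its median. As markers of the line, VIM ranged from 4347 to 5241 and CD44 from 1683 to 2142 over the 4 arrays. The oestrogen receptor gene ESR1 (73.6 to 78.9), the progesterone receptor gene PGR (15.0 to 21.9) and the leukocyte marker PTPRC (25.1 to 27.4) lay among the dim features. Other markers of the same lists went the other way. The luminal keratin genes KRT8 (3899 to 4504), KRT18 (4422 to 5829) and KRT19 (2342.5 to 4204) were bright. So was the leukocyte marker CD68 (1450 to 1871), while the mesenchymal marker SPARC (42.3 to 58.7) lay among the dim features. Of 6 mesenchymal markers 5 were tested, 1 fell (AXL) and 0 rose, and their summed intensity was 21012 and 21375 in controls and 17936 and 17606 in knockdown cells, with none listed at 0. Of the luminal markers 6 of 8 were tested, with 1 higher and 1 lower, of the leukocyte markers 3 of 4 measured, with 1 lower, of the fibroblast markers 1 of 4 measured, with no call, and none of 5 endothelial markers was bright enough to be tested. Whether this lower sum of mesenchymal markers has a part in the results on the members was not tested.

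Of the 9 members with a gene-level cluster, 8 passed the filter on dim features. KLF6, KLF10 and EGR1 fell and no member rose, which is 3 of 8, or 37.5%, called lower beside 15.3% of all tested clusters. The other 5 tested members, KLF2, KLF4, KLF5, IER2 and IER3, did not pass, and EGR3 was too dim to be tested. The median difference of the 8 was -0.209, and it was -0.160 after quantile normalization and -0.118 after centring, when 2 of the 3 calls remained under each. Members were chosen with results of these arrays known, so the share is a description.

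**Figure D1:**
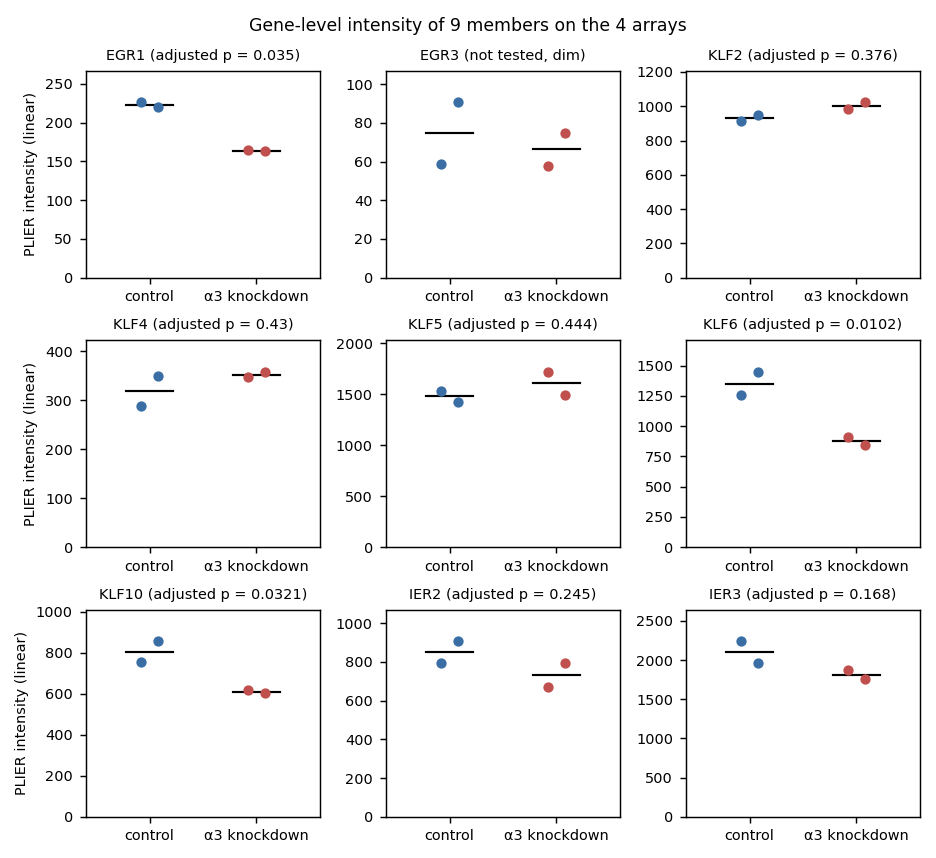
PLIER intensity (linear, axes from 0) of the 9 members with a gene-level cluster; each point is 1 array, blue for control and red for α3 knockdown, and the line is the mean of 2 arrays. Both knockdown arrays lie below both controls for EGR1, KLF6, KLF10 and IER3 and above them for KLF2, while the groups overlap for EGR3, KLF4, KLF5 and IER2.

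Among the EGR factors, EGR1 (transcript cluster 2830861), the factor that links growth signals to later gene programmes, measured 226 and 220 in controls and 164 and 163 in knockdown cells. Both knockdown arrays lay below both controls, and replicates differed by far less than the groups. The difference was -0.41 ± 0.10 (SE), a 1.33-fold fall (95% interval -0.66 to -0.17, adjusted p = 0.0350). This call was the least stable of the 3, since it was lost without any 1 array (adjusted p = 0.0813 without control replicate 1, 0.0666 without control replicate 2, 0.169 without knockdown replicate 1 and 0.198 without knockdown replicate 2). It was also lost after quantile normalization (adjusted p = 0.0662), after centring (0.0662) and without the filter (0.0567).

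EGR3, which is induced with EGR1 and acts in muscle spindles and lymphocytes, measured 58.7 and 90.6 in controls and 57.9 and 74.8 in knockdown cells, with overlapping groups. Its cluster lay among the dim features, and without the filter its difference was -0.12 (adjusted p = 0.815). EGR2, needed for hindbrain patterning and myelination, was read only by probesets. Of its 8 probesets 6 were among the dim features. The brighter of its 2 tested probesets (3291603) measured 747 and 902 in controls and 1043 and 637 in knockdown cells, a wider gap between the knockdown replicates than between the groups. The other (3291605) measured 208 and 216 in controls and 239 and 213 in knockdown cells. Neither passed (log2 differences -0.0094 and 0.083).

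KLF6 (transcript cluster 3274361), a factor induced by tissue injury and studied as a tumour suppressor with several splice forms, had the smallest p of the members. It measured 1255 and 1450 in controls and 912 and 841 in knockdown cells. The lowest control stood well above the highest knockdown value, though the controls also differed from each other. The difference was -0.61 ± 0.098 (SE), a 1.53-fold fall (95% interval -0.85 to -0.38, adjusted p = 0.0102). With a single array left out, the difference ranged from -0.72 to -0.51 and the call was lost only without knockdown replicate 2 (adjusted p = 0.0575). The call held after quantile normalization (0.00859), after centring (0.0102) and without the filter (0.0285).

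KLF10 (transcript cluster 3147508), also called TIEG, which is induced early by transforming growth factor beta, measured 754 and 857 in controls and 617 and 606 in knockdown cells. The groups did not overlap, and most of the spread was between the controls. The difference was -0.39 ± 0.092 (SE), a 1.31-fold fall (95% interval -0.61 to -0.16, adjusted p = 0.0321). It no longer passed without control replicate 2 (adjusted p = 0.0712), knockdown replicate 1 (0.128) or knockdown replicate 2 (0.167) and without the filter (0.0640), and it held after quantile normalization (0.0287) and centring (0.0412).

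The other 3 Krüppel-like members had small positive differences that did not pass. KLF2, a factor of endothelial quiescence that flow induces, measured 915 and 949 in controls and 984 and 1024 in knockdown cells. Both knockdown arrays lay above both controls, as in 22.3% of all tested clusters, and the difference of 0.11 had a 95% interval from -0.079 to 0.29 (adjusted p = 0.376). KLF4, which drives epithelial barrier formation and is 1 of the reprogramming factors, measured 287 and 349 in controls and 346 and 358 in knockdown cells. Control replicate 1 stood low and the groups overlapped (difference 0.15, 95% interval -0.14 to 0.43, adjusted p = 0.430). With 1 array left out the KLF4 difference ranged from 0.011 to 0.28. KLF5, a growth-promoting factor of epithelial stem and basal cells, measured 1531 and 1427 in controls and 1721 and 1493 in knockdown cells, where knockdown replicate 2 lay between the controls. Its difference of 0.12 had an interval from -0.12 to 0.35 (adjusted p = 0.444) and ranged from 0.014 to 0.22 with 1 array left out. A difference of the size seen for KLF6 (-0.61) lies outside all 3 intervals. Whether KLF6 differs from KLF2, KLF4 or KLF5 in its response was not tested directly.

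IER2, a nuclear protein of the early growth response, measured 794 and 907 in controls and 671 and 797 in knockdown cells. The groups overlapped by a small margin, and the difference of -0.21 had a 95% interval from -0.49 to 0.068 (adjusted p = 0.245). IER3, also known as IEX-1, a regulator of cell death downstream of ERK and NF-κB, measured 2241 and 1960 in controls and 1871 and 1758 in knockdown cells. Both knockdown arrays lay below both controls, as in 39.6% of all tested clusters, but the difference of -0.21 did not pass (95% interval -0.43 to 0.017, adjusted p = 0.168). With 1 array left out the difference of IER2 ranged from -0.33 to -0.089 and that of IER3 from -0.30 to -0.11. Neither passed in any of the alternative settings run, and the sign of both was negative in each.

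The probesets gave a view of the members that does not rest on 1 summary value per gene. Of the 102 member probesets, 80 passed the filter on dim features, and 3 of them were called lower and 0 higher. That is 3.75% lower beside 3.25% of all 172397 tested probesets, and 0 higher beside 1.33%, so the share of calls was near the background. In simulated data this fit recovered 4% of 1.5-fold and 48% of 2-fold changes of single probesets. The count of calls therefore says little about changes of that size. At an unadjusted p under 0.05, 20 of the 80 passed, beside 21.0% of all. Both knockdown arrays lay below both controls in 31 of the 80 (38.8%, beside 31.3% of all) and above them in 9 (11.2%, beside 19.4%).

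Direction among the probesets followed the gene. All 12 KLF6 probesets were tested, and all 12 had a negative difference, from -1.17 to -0.17 with a median of -0.64. In 11 of them both knockdown arrays lay below both controls, and 10 had an unadjusted p under 0.05. Probesets 3274410 and 3274416 were called lower. The first measured 1448 and 1608 in controls and 930 and 1029 in knockdown cells (log2 difference -0.63, adjusted p = 0.0396), the second 529 and 481 in controls and 284 and 277 in knockdown cells (-0.81, adjusted p = 0.0422). The 1 probeset with overlapping groups, 3274419, measured 817 and 943 in controls and 1248 and 483 in knockdown cells, so knockdown replicate 1 was the highest of the 4 arrays and knockdown replicate 2 the lowest. The steepest, 3274418, measured 306 and 568 in controls and 203 and 153 in knockdown cells and did not pass (adjusted p = 0.0605).

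For KLF10, 9 of 11 probesets were tested and all 9 had a negative difference, from -0.69 to -0.20, with the groups apart in 8. Probeset 3147541 was called lower, at 785 and 781 in controls and 500.4 and 458 in knockdown cells (log2 difference -0.69, adjusted p = 0.0450). For EGR1, 13 of 16 were tested and all 13 had a negative difference, but their size spread from -0.63 to -0.0047, with a median of -0.22, and the groups were apart in 5. The probeset at the flat end, 2830874, was the brightest of the gene. It measured 8411 and 8039 in controls and 7968 and 8432 in knockdown cells. The next brightest, 2830873, measured 1063 and 1263 in controls and 1168 and 961 in knockdown cells, with overlapping groups. The steepest tested EGR1 probeset, 2830888, measured 354 and 385 in controls and 227 and 238 in knockdown cells. It did not pass (adjusted p = 0.108). Without the filter, the dim probesets 2830878 (-0.79) and 2830887 (-0.70) lay lower and did not pass (limma adjusted p = 0.262 and 0.317).

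The members without a gene-level call had probesets of both signs, apart from EGR3 with its single tested one. Differences were positive for 7 of 9 tested KLF2 probesets (range -0.056 to 0.39), 9 of 10 of KLF4 (-0.20 to 0.46) and 11 of 13 of KLF5 (-0.084 to 0.26). They were negative for 4 of 5 tested IER2 probesets (-0.43 to 0.11, median -0.23) and 5 of 6 of IER3 (-0.28 to 0.23, median -0.21), medians close to the -0.22 of EGR1. The groups were apart, with knockdown lower, in 3 of the 5 IER2 and 4 of the 6 IER3 probesets. The single tested EGR3 probeset, 3127592, measured 243 and 369 in controls and 240 and 331 in knockdown cells (difference -0.082). Probesets of a gene are read from the same RNA and arrays and are not replicates.

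**Figure D2:**
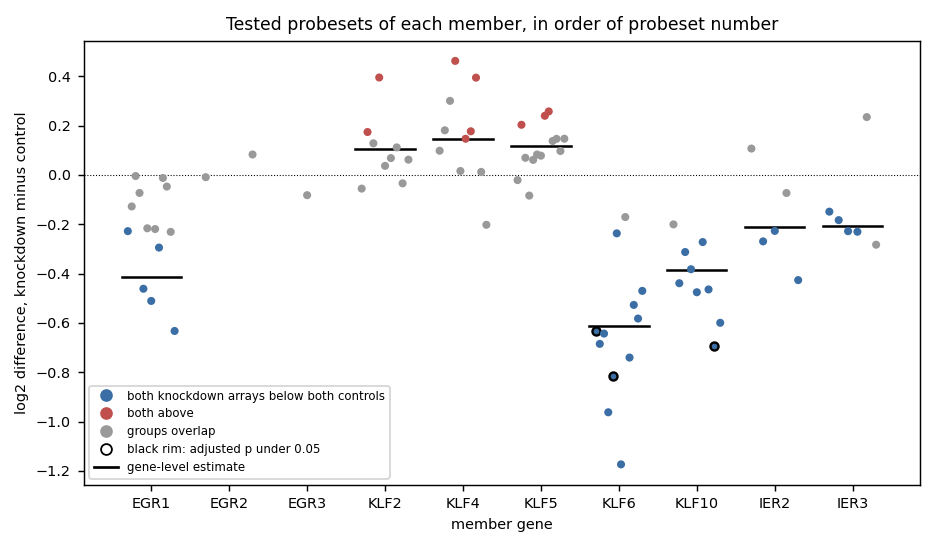
Log2 difference (knockdown minus control) of each of the 80 tested probesets, by member and in order of probeset number; colour gives whether the 2 knockdown and 2 control arrays overlap, a black rim an adjusted p under 0.05, and the line the gene-level estimate. All tested probesets of KLF6, KLF10 and EGR1 lie below 0, and the 3 rimmed ones belong to KLF6 and KLF10.

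The gene-level calls did not carry over to 1 simpler summary, the median level of a gene's probesets. This median rests on the 1 or 2 probesets of middle brightness in each array, so it does not weigh all probesets of a gene. When each gene was given the median log2 value of its tested probesets in each array and refitted over all genes, 2.12% of genes were called higher and 5.75% lower, and 0 of the 10 members. KLF10 came nearest, with a difference of -0.46 (95% interval -0.77 to -0.16, adjusted p = 0.0744). KLF6 had -0.42 (-0.83 to -0.016, adjusted p = 0.192) and EGR1 -0.25 (-0.60 to 0.093, adjusted p = 0.359). The KLF10 value is that of probeset 3147538 alone. For KLF6 the median of the 12 probeset differences was -0.64, wider than the difference of medians. The loss of calls under this summary therefore does not show that the probesets as a set failed to fall. By an unadjusted p under 0.05 in this limma fit, KLF10 and KLF6 passed, but the share of all genes that did so was not counted. Among single probesets, 21.0% of all tested ones passed that cut. All 3 kept the negative sign. EGR2, unread at the gene level, had 0.037 (-0.36 to 0.43, adjusted p = 0.931) from its 2 tested probesets.

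**Figure D3:**
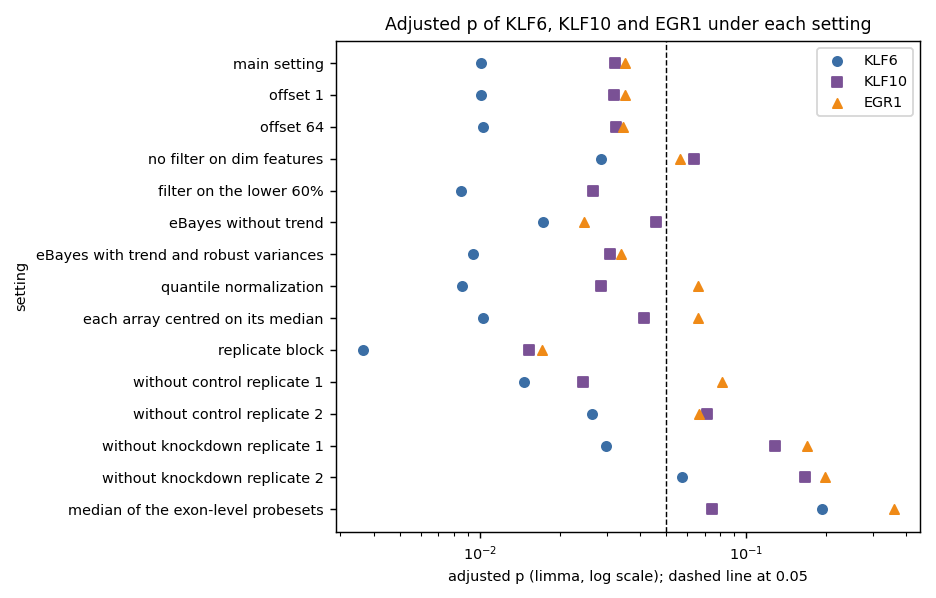
Adjusted p (limma, log axis) of KLF6, KLF10 and EGR1 under the main setting and each alternative, with a dashed line at 0.05. KLF6 crosses the line without knockdown replicate 2 and on exon-level medians, while EGR1 crosses it in 8 settings and KLF10 in 5; EGR1 was not tested with the lower 60% left out.

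Exon usage was read as each probeset's change against the mean change of the other tested probesets of its gene, in genes with at least 3 tested probesets. This left 77 member probesets in 8 members, and 0 were called, beside 0.0444% of all 155391 probesets so tested. At an unadjusted p under 0.05 limma had 2 of the 77, beside 6.06% of all. These were 2830888 of EGR1, which lay 0.43 ± 0.17 (SE) lower than the rest of its gene (adjusted p = 0.766), and 3823689 of KLF2, which lay 0.33 higher (adjusted p = 0.816). The widest departures were both in KLF6, at -0.59 for probeset 3274418 (adjusted p = 0.861) and 0.51 for 3274419 (adjusted p = 0.922). With limma's diffSplice, 0 member probesets were called. Its Simes test per gene called 3.51% of all 12211 genes and 0 of the 8 members, 0 also at an unadjusted p under 0.05, and the smallest Simes adjusted p of the 8 was 0.878, for IER3. Both tests made calls among other genes, and neither made one among the members. In simulated data the limma usage test recovered 2% of 1.5-fold and 10% of 2-fold changes of single probesets, and 94% of 4-fold ones. The absence of a call therefore does not show that exon usage of the members was unchanged.

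Other genes of the immediate early response moved in both directions. Of 28 listed, 20 were tested. Among these 4 fell and 2 rose while 14 did not pass, at a median difference of -0.087 beside -0.055 for all clusters. Of all tested clusters 15.3% fell and 5.99% rose, and the counts of this list and those below are descriptions to be read beside these shares. Quantile normalization gave 3 rises and 4 falls and centring 3 of each, when the list's median was 0.0045, and without the filter 1 rose and 3 fell. The AP-1 genes JUNB (difference -0.62, adjusted p = 0.00655) and JUN (-0.43, adjusted p = 0.0138) fell, as did MAFF, a small MAF factor, from 447 and 456 to 332 and 328 (-0.43, adjusted p = 0.0180). PLK2, a polo-like kinase, rose from 2476 and 2555 to 3445 and 3588 (0.48, adjusted p = 0.00908). FOS, the classical partner of JUN, measured 128 and 127 in controls and 100.1 and 105 in knockdown cells and did not pass (adjusted p = 0.145). Of these calls, JUNB held with any 1 array left out. Those of JUN, PLK2 and MAFF were lost without knockdown replicate 2 (adjusted p = 0.0581 for JUN, 0.0617 for PLK2 and 0.137 for MAFF), and those of JUN and MAFF also without knockdown replicate 1 (0.0912 and 0.108).

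In the wider KLF and SP family, 14 of 21 other genes were tested, of which 2 fell and 0 rose while 12 did not pass, also after either other scaling. KLF12, a repressor of the AP-2α gene, fell from 469 and 536 to 308 and 272 (difference -0.76, adjusted p = 0.00766), and this call held with any 1 array left out. KLF13 fell from 277 and 314 to 193 and 208 (-0.52, adjusted p = 0.0219), a call lost without control replicate 2 (adjusted p = 0.0619), knockdown replicate 1 (0.127) or knockdown replicate 2 (0.0941). SP1, the ubiquitous GC-box factor, measured 978 and 1125 in controls and 868 and 881 in knockdown cells (adjusted p = 0.100), and KLF9 measured 230 and 211 in controls and 166 and 195 in knockdown cells (adjusted p = 0.170). Neither of these passed.

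The corepressors and relatives of the EGR factors gave no call in 4 tested genes. NAB2, the EGR-induced corepressor, measured 204 and 247 in controls and 183 and 206 in knockdown cells, with overlapping groups (difference -0.20, adjusted p = 0.343). NAB1 measured 432 and 439 in controls and 458 and 503 in knockdown cells (0.14, adjusted p = 0.327). EGR4 (adjusted p = 0.829) and WT1 (adjusted p = 0.924) also did not pass.

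Of 26 genes of the SRF and ERK route upstream of the members, 16 were tested. Among these 4 fell and 2 rose while 10 did not pass, at a median difference of -0.225. Quantile normalization gave 3 rises and 4 falls, centring 3 rises and 2 falls, and leaving out the filter 1 rise and 3 falls. MEF2D, a factor through which ERK5 reaches KLF2 and KLF4, fell from 835 and 742 to 434 and 445 (difference -0.82, adjusted p = 0.00403). MEF2C, its relative, rose from 117 and 119 to 184 and 176 (0.54, adjusted p = 0.0193). HRAS fell from 1217 and 1311 to 851 and 853 (-0.56, adjusted p = 0.00700), and the adaptor gene SHC1 from 1456 and 1370 to 1088 and 1102 (-0.36, adjusted p = 0.0218). SRF itself measured 1023 and 955 in controls and 797 and 865 in knockdown cells and ELK1 416 and 409 in controls and 345 and 349 in knockdown cells. Neither passed (adjusted p = 0.0901 and 0.0992). The calls of MEF2D and HRAS held with any 1 array left out. Those of MEF2C and SHC1 were lost without knockdown replicate 1 (0.117 and 0.120) or knockdown replicate 2 (0.104 and 0.121), and that of SHC1 also without control replicate 1 (0.0505) and after centring (0.0602).

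Genes known as targets of these factors also moved in both directions. The lists give no direction in which a factor drives a target, so rises and falls were only counted. Of 10 tested genes known as EGR1 targets, 4 fell, 1 rose and 5 did not pass, under the authors' scaling and after either other scaling. TGFB1 fell from 463 and 531 to 286 and 306 (difference -0.71, adjusted p = 0.00773), fibronectin (FN1) by 0.62 on the log2 scale (adjusted p = 0.00496), and the membrane protease gene MMP14 from 1722 and 1958 to 1298 and 1245 (-0.52, adjusted p = 0.0121). The adhesion molecule gene ICAM1 rose from 428 and 417 to 835 and 774 (0.90, adjusted p = 0.00250). The call of MMP14 was lost without knockdown replicate 2 (0.0680), and those of TGFB1, FN1 and ICAM1 held with any 1 array left out.

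Of 9 tested genes known as KLF targets, 3 fell and 1 rose while 5 did not pass, with 2 falls after centring. The list's widest difference lay outside this count, in CDH1, the gene of the epithelial adhesion protein E-cadherin, singled out after its values were seen. It measured 25.4 and 28.8 in controls and 177 and 168 in knockdown cells, but its mean lay among the dim features. Without the filter CDH1 rose (difference 2.13, adjusted p = 0.00435) and was the 1 rise of the list beside 3 falls. EDN1, which encodes endothelin-1, fell from 1099 and 947 to 445 and 449 (difference -1.16, adjusted p = 0.00182), and the urokinase gene PLAU from 3325 and 3403 to 2056 and 2068 (-0.70, adjusted p = 0.00316). The receptor gene TGFBR1 fell from 1413 and 1464 to 1145 and 1125 (-0.34, adjusted p = 0.0243), and thrombomodulin (THBD) rose from 468 and 499.8 to 671 and 618 (0.40, adjusted p = 0.0258). EDN1 and PLAU kept their calls with any 1 array left out. TGFBR1 lost its call without control replicate 2 (0.0552), knockdown replicate 1 (0.117) or knockdown replicate 2 (0.157) and after centring (0.0517), and THBD without control replicate 1 (0.0612), knockdown replicate 1 (0.178) or knockdown replicate 2 (0.104) and without the filter (0.0516). Many signals reach these targets besides EGR and KLF factors. The lists were drawn up with earlier results of these arrays known.

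**Figure D4:**
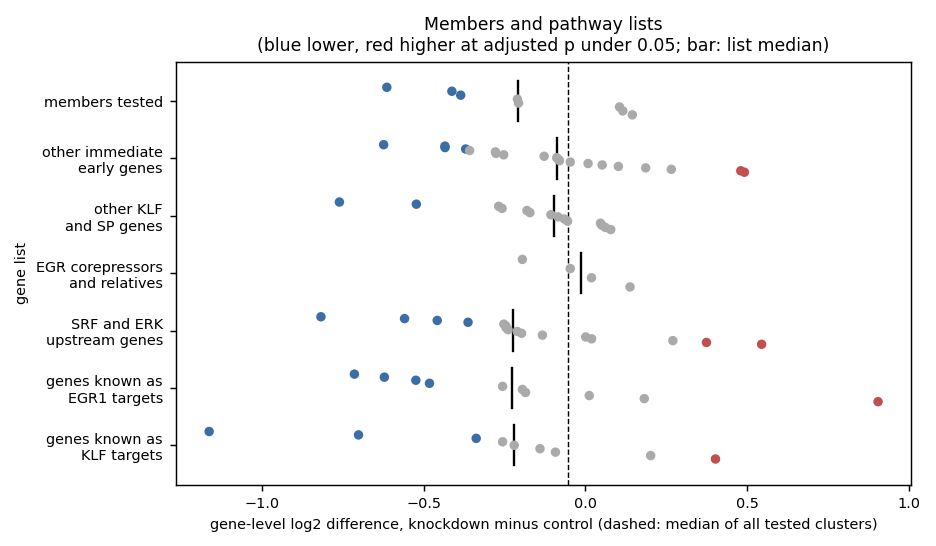
Gene-level log2 difference (knockdown minus control) of every tested gene in the member list and in 6 pathway lists; each point is 1 gene, blue where lower and red where higher at an adjusted p under 0.05, grey where it did not pass, with a bar at the list median and a dashed line at the median of all tested clusters (-0.055). Blue points outnumber red in each list that has any call. Lower calls also outnumber higher ones over all tested clusters (15.3% beside 5.99%). With arrays centred on their medians the immediate early list had 3 of each and the SRF and ERK list 3 rises and 2 falls.

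The genes whose 4 values followed those of KLF6 most closely were sought among 9230 genes with 1 symbol, by the Euclidean distance of log2 values centred on the control mean. Nearest were the histone gene H4C1 (distance 0.024), the channel gene MCOLN2 (0.041) and the small GTPase gene RAP2C (0.042). H4C1 measured 738 and 857 in controls and 541 and 500.3 in knockdown cells, but it is uncertain because histone H4 genes are near-identical copies. MCOLN2 measured 248 and 290 in controls and 173 and 165 in knockdown cells, and RAP2C 474 and 559 in controls and 348 and 326 in knockdown cells. Likeness over 4 arrays is a description of these arrays only.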

How the data were processed

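RNA of 2 control and 2 α3 knockdown cultures was hybridised to 4 arrays, each summarised by gene and by exon. The values are PLIER intensities that the authors deposited on a linear scale. They came from Affymetrix Expression Console, per the labels and the submitters' processing notes, and the design text also gives the Affymetrix Exon Array Computational Tool. No source at hand gives versions, background correction, normalization between arrays or a genome build. The authors' normalization was kept.

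Features with 1 gene symbol (14432 at the gene level, 261273 at the exon level) were named through the platform annotation, with symbols updated through RefSeq. Values were transformed as log2(intensity + 16), the lower 40% by mean were left out, and the groups were then fitted in limma (version 3.58.1, R 4.3.3; lmFit, eBayes with trend, 2 residual degrees of freedom, two-sided, Benjamini-Hochberg adjustment). The exon-level fit, the per-gene medians and the exon usage test used the same model. The gene-level fit, the exon-level fit and the exon usage test were tested on simulated data. False calls there numbered 31 of 224 calls at the gene level, 35 of 160 at the exon level and 14 of 117 for exon usage. In simulated data without changes, the calls numbered 2, 8 and 0. Calls close to the cut-off, such as those of EGR1, KLF10 and the called member probesets, should be read beside these counts. Plots used matplotlib 3.10.9 (Python 3.11.15).

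The rule for named genes took all members, ITGA3, the 4 smallest p of each list, the probesets at each member's extremes and the 3 genes closest to the member with the smallest p; where a list has more of them, the text gives some. Other genes are named only to give the count or the role they stand for. Members, lists and tests were chosen with earlier results of these data known. In the immediate early list, 1 called gene is counted but not reported here by name.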

Additional observations from a re-analysis of the deposited data

How the results depend on the processing

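The 3 member calls at the gene level numbered 1 without the filter on dim features and 0 on exon-level medians, and 0 to 2 with 1 array left out. None of the 8 tested members changed sign in any setting run. Called member probesets, 3 in the main setting, numbered 0 without the filter, 5 with the lower 60% left out, 0 without the variance trend, 1 after quantile normalization, 0 after centring and 0 to 3 with 1 array left out. A group reduced to 1 array takes its spread from the other group.

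Replicate numbers are shared by the groups but nothing in the labels pairs them. Deviations of same-numbered arrays correlated at 0.290 (gene level) and 0.300 (exon level), a hint only with 2 pairs. With the replicate number as a block, 3 members were still called lower, higher clusters numbered 1324, member probesets called lower 16, and all probesets called 10755 higher and 18202 lower.

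Over all features, higher clusters numbered 485 without the filter, 1354 after quantile normalization and 1496 after centring, beside 791. Probesets called higher and lower, 2292 and 5599 in the main setting, were 43 and 120 without the filter and 379 and 1314 without the trend, and 3508 were higher after centring. With 1 array left out, higher clusters ranged from 166 to 909, lower clusters from 632 to 1906, higher probesets from 753 to 2110 and lower probesets from 2161 to 3257. Of 70 genes in the 6 pathway lists, 6 rose and 17 fell, with 1 to 5 and 8 to 16 when 1 array was left out. Exon usage calls in members stayed at 0 in all settings, diffSplice included. Averaging all clusters of a member could not differ, since each has 1. The cause of these changes was not tested.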
